A study of Mus musculus with 12 samples.

Results

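Transcripts of 9 mouse genes of insulin signalling, gluconeogenesis and glycogen control were followed in fasted liver: the insulin receptor Insr, its adaptor Irs2, the regulators Foxo1 and Ppargc1a, the enzymes G6pc and Pck1, the secreted binding protein Igfbp1, the glycogen targeting subunit Ppp1r3g and the lipin Lpin1. They were taken by gene symbol, and all 9 of 9 had a probe among the 19084 genes measured. Lpin1 had 2 probes and the others 1 each, which gave 10 probes of 21876 with a gene symbol. Liver RNA of male C57BL/6 mice was measured on 12 single-colour arrays, 3 in each of 4 groups. PTFC mice ate a high-fat diet for 24 weeks and were given pure total flavonoids from citrus by the intragastric route, at a daily dose of 50 mg per kg, for the last 18 of those weeks. HFD24 mice had the same diet for 24 weeks and HFD16 mice for 16 weeks, and ND mice were kept for 24 weeks on the normal diet. The high-fat diet held 36.1% fat, from lard and egg yolk powder among others, with bile salt and 2% cholesterol, and the normal diet held 12.3% fat. Groups other than PTFC received saline, and every liver was taken after an overnight fast of 12 h. The mice were 31 to 33 weeks old at collection in PTFC and HFD24, 23 to 25 weeks in HFD16 and 30 to 33 weeks in ND, so age and time on the diet cannot be told apart where HFD16 is compared. The labels number 3 replicates per group of 6 mice without saying that each is a separate animal, so the p-values measure only the spread between these arrays.

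Insulin binds its receptor, which phosphorylates adaptors such as Irs2, and the kinase cascade that follows keeps the forkhead factor Foxo1 out of the nucleus. In fasting, when insulin is low, Foxo1 is nuclear and, with the coactivator Ppargc1a, raises transcription of the glucose-producing enzymes G6pc and Pck1, of Igfbp1 and of Irs2 itself. Transcripts of this group are therefore known to move with feeding and fasting in liver.

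The sequences in which this control is known to be read are shown for genes that the results turn on. RefSeq promoters (build GRCm38.p6) were matched for 8 of the 9 genes, and the 250 bases before the annotated start are printed 5′ to 3′ on the gene's strand. Capitals mark matches, on either strand, to these motifs: the insulin response element TGTTTTG, a second known form of that element TATTTTG, the core forkhead factor motif GTAAACA, the cAMP response element half-site TGACG and the E-box motif CACGTG. The windows are chr11:7197537-7197786 (plus strand) for Igfbp1, chr11:101367466-101367715 (plus strand) for G6pc, chr8:11008930-11009179 (minus strand) for Irs2 and chr2:173152823-173153072 (plus strand) for Pck1.
Igfbp1: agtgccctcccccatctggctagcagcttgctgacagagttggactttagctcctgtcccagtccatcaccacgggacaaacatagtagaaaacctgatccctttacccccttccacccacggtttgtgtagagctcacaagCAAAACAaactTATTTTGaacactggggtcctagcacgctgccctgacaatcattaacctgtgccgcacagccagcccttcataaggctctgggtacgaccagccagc
G6pc: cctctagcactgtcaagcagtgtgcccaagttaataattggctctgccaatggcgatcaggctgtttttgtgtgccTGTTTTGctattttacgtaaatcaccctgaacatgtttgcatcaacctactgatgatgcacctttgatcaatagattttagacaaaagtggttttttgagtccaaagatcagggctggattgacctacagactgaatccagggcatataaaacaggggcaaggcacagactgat
Irs2: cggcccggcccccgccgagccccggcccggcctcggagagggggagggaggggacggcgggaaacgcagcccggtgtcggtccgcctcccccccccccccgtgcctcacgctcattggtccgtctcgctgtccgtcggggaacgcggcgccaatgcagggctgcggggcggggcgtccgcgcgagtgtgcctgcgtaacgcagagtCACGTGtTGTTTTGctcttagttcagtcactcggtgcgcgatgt
Pck1: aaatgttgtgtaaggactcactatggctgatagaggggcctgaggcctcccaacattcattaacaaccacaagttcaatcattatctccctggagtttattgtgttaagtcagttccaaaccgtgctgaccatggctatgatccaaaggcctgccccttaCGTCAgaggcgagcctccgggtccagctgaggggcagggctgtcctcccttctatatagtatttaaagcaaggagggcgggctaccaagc

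The Igfbp1 window held both forms of the insulin response element close together, CAAAACA (the first form, on the other strand) at bases 108 to 102 before the start and TATTTTG at bases 97 to 91. G6pc held TGTTTTG at bases 174 to 168 and Irs2 at bases 37 to 31, next to an E-box that ended 39 bases before the start. The Pck1 window held CGTCA, the half-site on the other strand, at bases 90 to 86. At least 1 form of the insulin response element was found in 3 of the 8 windows (37.5%), and in 9.14% of 32851 promoter windows of the same length. The half-site was found in 17.8% of those windows, the E-box in 6.02% and GTAAACA in 3.17%. Among the windows not printed, Ppargc1a and Ppp1r3g each held 1 half-site, and Foxo1 and Lpin1 held no match to these letters. A match is a description of the letters only.

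Correlations between arrays over all genes were 0.981 to 0.993 within groups and 0.961 to 0.989 between groups. Hepatocyte markers were present on all arrays, with a summed normalized intensity, in units of 1000, of 2503 to 2667 in PTFC, 2365 to 2437 in HFD24, 2386 to 2507 in HFD16 and 2491 to 2631 in ND over 11 of 14 markers. Between HFD24 and ND, 0 of these 11 rose, 1 fell and the median log2 difference was -0.13. In the same units, the sum over 13 of 14 macrophage markers was 93.4 to 113 in PTFC, 143 to 202 in HFD24, 52.7 to 234 in HFD16 and 23.7 to 49.3 in ND. All 13 rose in HFD24 against ND, and 1 of 13 fell in PTFC against HFD24, with a median log2 difference of -0.96. The sum over the 12 stellate cell and matrix markers was 101 to 149 in PTFC, 133 to 165 in HFD24, 90.6 to 184 in HFD16 and 45.5 to 76.3 in ND. No marker of these lists had a group mean intensity at or below 0. The sum over 7 of 8 adipocyte markers was 53.0 to 69.9 in PTFC, 32.4 to 44.5 in HFD24, 21.9 to 32.0 in HFD16 and 52.8 to 63.8 in ND, so it was lower in HFD24 and HFD16 than in PTFC and ND on every array. Of these 7 markers 1 rose (Lipe, by 1.50) and 1 fell (Pnpla2, by 0.72) in HFD24 against ND, while Pnpla2 (0.80) and Retn (0.75) rose and Lipe fell by 1.02 in PTFC against HFD24. Pnpla2, a lipase that hepatocytes also express, was the brightest of the 7, and the adipocyte hormones Adipoq and Lep did not pass (-0.75 and -0.30 in HFD24 minus ND). In HFD24 the mean log2 level was 15.01 for Pnpla2 and 11.86 for Fabp4, the next brightest. The adipocyte sum therefore mostly follows Pnpla2 and cannot show adipocyte content. Macrophage markers and stellate cell and matrix markers thus moved with the groups. The part of any of these cell types in the results was not tested. In bulk liver, fewer cells of a type and less RNA per cell cannot be told apart. HFD16 replicate 3 stood apart, with a summed skeletal muscle marker intensity, unscaled, of 12256 against 685 to 995 on the other 11 arrays. Member calls that use HFD16 are given with and without it. Statements on overlap of arrays, order of groups and likeness of pattern include it.

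In HFD24 livers 5 of the 9 transcripts were lower than in ND livers: the adaptor Irs2, the coactivator Ppargc1a, the enzyme G6pc, Igfbp1 and Ppp1r3g. No member rose, while Insr, Foxo1, Pck1 and Lpin1 did not pass the test. The test was limma on log2(intensity + 1), quantile normalized between arrays, over all 19084 genes with a Benjamini-Hochberg adjusted p under 0.05. Of all genes 18.3% passed in this comparison, 9.97% as higher and 8.28% as lower. The median log2 difference was -1.05 over the members and -0.06 over all genes. Because the members were chosen with earlier results of these data known, their counts and medians beside all genes are descriptions. They are not a test of the set. In PTFC livers 3 of the 9 were higher than in HFD24 livers, namely Irs2, Igfbp1 and Lpin1, where 6% of all genes passed, 2.96% as higher and 3.04% as lower. The median log2 difference was 0.72 over the members and 0.01 over all genes. Both comparisons use the HFD24 arrays, so their values are given side by side for each gene. The 3 PTFC calls were all lost without HFD24 replicate 1 and without PTFC replicate 3.

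**Figure D1:**
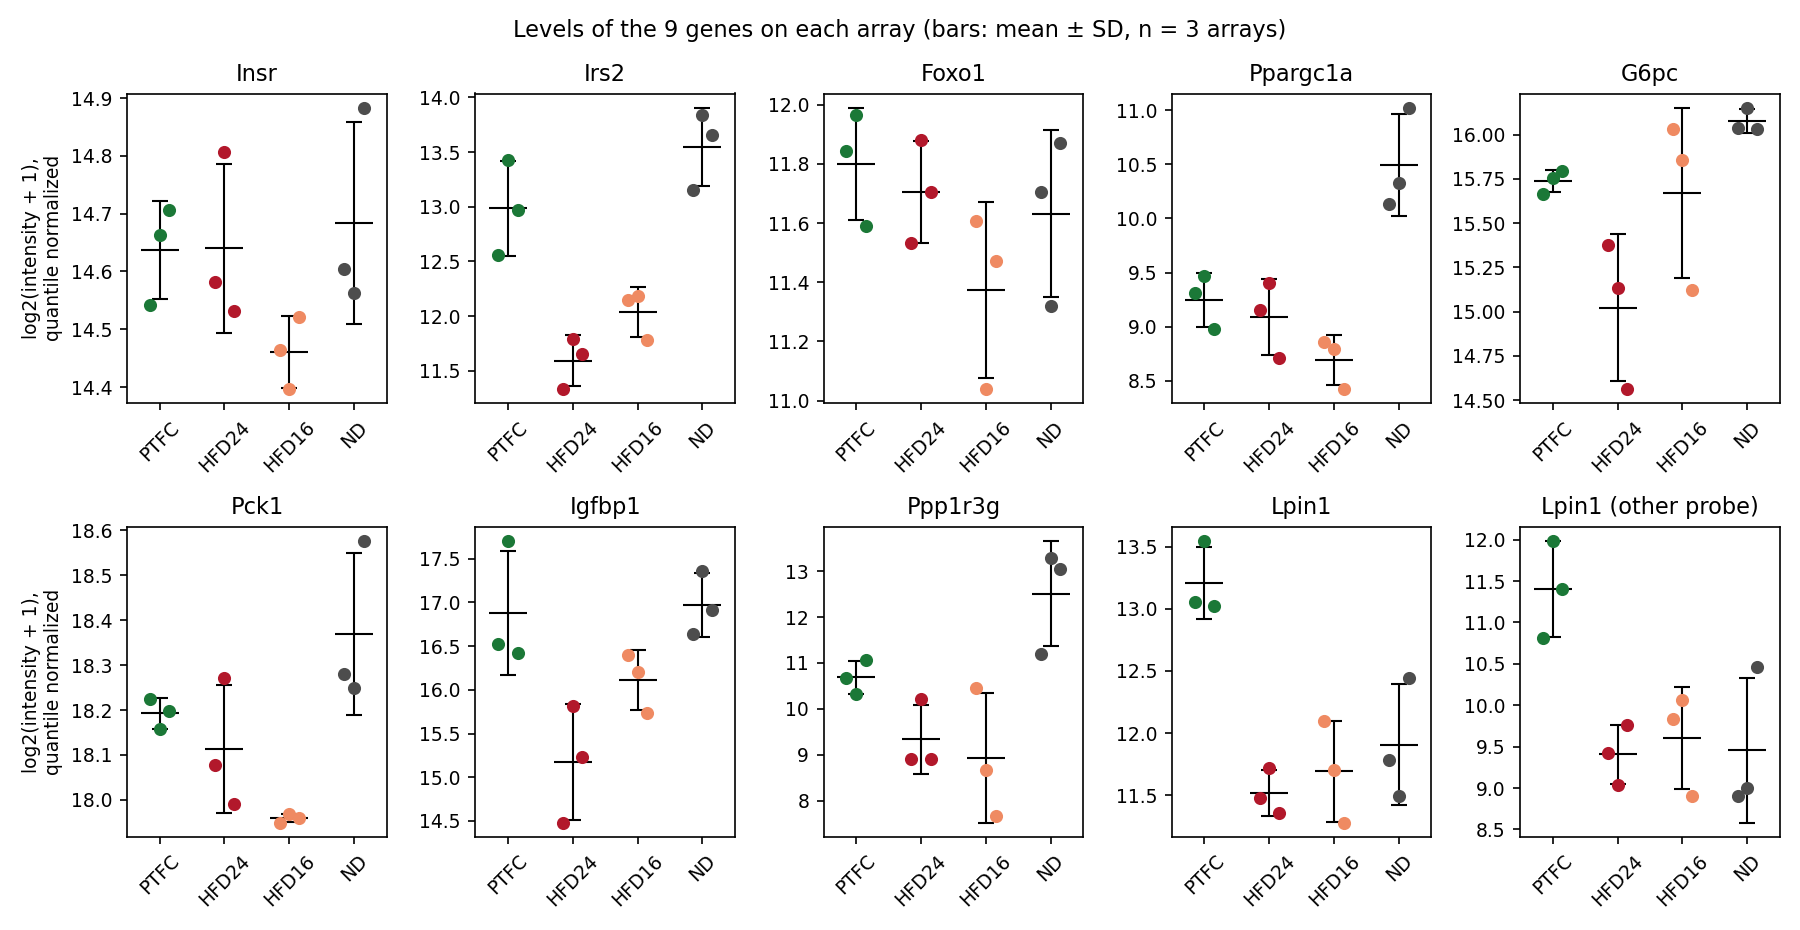
Levels of the 9 genes on each array as log2(intensity + 1) after quantile normalization, with both Lpin1 probes; points are arrays, and bars are mean ± SD of 3 arrays per group in the order PTFC, HFD24, HFD16 and ND. Vertical axes differ between panels; the Irs2 points of HFD24 (11.33 to 11.79) lie below those of PTFC (12.56 to 13.43) and ND (13.15 to 13.84).

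The receptor itself did not pass in any comparison. Insr intensities were 23927 to 27858 in PTFC, 23219 to 28071 in HFD24, 21552 to 23313 in HFD16 and 24296 to 29965 in ND. After normalization the HFD16 arrays were all below those of the other groups, and the remaining groups overlapped. The log2 difference was -0.04 ± 0.13 (SE) for HFD24 minus ND, with a 95% interval of -0.33 to 0.25 and adjusted p = 0.854. PTFC minus HFD24 had an interval of -0.29 to 0.29.

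Irs2, an adaptor through which the receptor signals in fasted liver, fell in the untreated high-fat groups. Another adaptor of the receptor, Irs1, did not pass in HFD24 minus ND (-0.15, limma adjusted p = 0.69). In PTFC minus HFD24 Irs1 stood at -0.23 (limma adjusted p = 0.571). Its deposited intensities were 6035, 11783 and 8227 in PTFC, 2395, 3459.7 and 3359 in HFD24, 4374, 4917 and 3388.5 in HFD16, and 9084, 14569.7 and 12792 in ND. Every HFD24 and HFD16 array lay below every ND and PTFC array, and PTFC overlapped ND. The normalized log2 level was 12.99 ± 0.44 in PTFC, 11.59 ± 0.23 in HFD24, 12.04 ± 0.23 in HFD16 and 13.55 ± 0.36 in ND (SD, n = 3 arrays each). HFD24 was 3.88-fold lower than ND (log2 difference -1.96 ± 0.24 SE, limma adjusted p = 0.000466). PTFC was 2.63-fold higher than HFD24 (1.40 ± 0.24, limma adjusted p = 0.0173). PTFC minus ND was -0.56 ± 0.24 with a 95% interval of -1.08 to -0.04 and adjusted p = 0.249. In order of level the groups ran HFD24, HFD16, PTFC and ND, and the neighbouring pairs HFD24 with HFD16 and PTFC with ND did not pass the test.

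Foxo1, the forkhead factor on which insulin acts, did not pass in any comparison. Its intensities were 3199 to 4249 in PTFC, 2769 to 3692 in HFD24, 2208 to 2958 in HFD16 and 2572 to 3637 in ND, and PTFC, HFD24 and ND overlapped. HFD24 minus ND was 0.07 ± 0.20 on the log2 scale, with an interval of -0.36 to 0.51 and adjusted p = 0.831. PTFC minus HFD24 was 0.09 ± 0.20, with an interval of -0.34 to 0.53. These are transcript levels, and the phosphorylation that moves the Foxo1 protein was not measured.

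Ppargc1a, the coactivator induced in fasted liver, was lower in all 3 high-fat groups than in ND. Its intensities were 725, 762 and 597 in PTFC, 450.4, 686 and 426 in HFD24, 396, 441 and 293 in HFD16, and 1164, 1329 and 1950.3 in ND. All 9 arrays of the high-fat groups lay below the 3 ND arrays. HFD24 was 2.65-fold lower than ND (-1.40 ± 0.25, limma adjusted p = 0.00255), and HFD16 was 3.49-fold lower (-1.80, adjusted p = 0.00128). Without HFD16 replicate 3 the HFD16 difference was -1.66 with adjusted p = 0.00921. PTFC and HFD24 overlapped, and their difference was 0.16 ± 0.25 with an interval of -0.38 to 0.70 and adjusted p = 0.742. PTFC was 2.37-fold lower than ND (-1.24 ± 0.25, limma adjusted p = 0.0245), and this call was lost without PTFC replicate 1 (adjusted p = 0.0611) and without PTFC replicate 3 (adjusted p = 0.112), and with the step covariate (adjusted p = 0.121).

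G6pc, the catalytic subunit that releases free glucose, had intensities of 51645, 60587 and 61016 in PTFC, 40306, 34893 and 24234 in HFD24, 63286, 59612 and 34733 in HFD16, and 70718, 75128 and 67702 in ND. The HFD24 arrays lay below all PTFC and ND arrays, and the PTFC arrays lay below all ND arrays. HFD24 was 2.07-fold lower than ND (-1.05 ± 0.23, limma adjusted p = 0.00707, or 0.0536 with each array's scaling step, the smallest spacing of its deposited values, as a covariate). Every ND array had a higher step than every other array, so in comparisons with ND step and diet are confounded. PTFC minus HFD24 was 0.72 ± 0.23 with an interval of 0.23 to 1.20 and adjusted p = 0.0767, which did not pass. It passed without HFD16 replicate 3 in the fit (adjusted p = 0.049) and without normalization (0.83, adjusted p = 0.0394). HFD16 spanned the range from HFD24 to ND, with a difference from ND of -0.40 and adjusted p = 0.23, or -0.13 and adjusted p = 0.713 without replicate 3.

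Pck1, the cytosolic enzyme that commits carbon to gluconeogenesis, fell in HFD16 against ND by a small amount. Its intensities were 322708, 299375 and 334235 in PTFC, 263787, 332974 and 239473 in HFD24, 250687, 228146 and 239780.2 in HFD16, and 329506, 314433 and 393968 in ND. After normalization HFD24 overlapped PTFC and ND, whereas the HFD16 arrays lay below those of the other groups. HFD24 minus ND was -0.26 ± 0.10 with an interval of -0.48 to -0.03 and adjusted p = 0.103. HFD16 was 1.33-fold lower than ND (-0.41 ± 0.10, limma adjusted p = 0.0175), a call that was lost without HFD16 replicate 3 at the same -0.41 (adjusted p = 0.0568), with median centring (-0.29, adjusted p = 0.302), with the step covariate (-0.36, adjusted p = 0.231) and without the trend in the prior variance (adjusted p = 0.0683). PTFC minus HFD24 was 0.08 ± 0.10 with an interval of -0.14 to 0.30.

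Igfbp1, a secreted protein that binds insulin-like growth factors and whose liver transcript insulin represses, had intensities of 96218, 217317 and 96610.3 in PTFC, 21941, 53888 and 37285 in HFD24, 83229, 73584 and 53214 in HFD16, and 108960.3, 172278 and 127531 in ND. The HFD24 arrays lay below all PTFC and ND arrays, and PTFC overlapped ND, with its replicate 2 the highest of all 12. The normalized log2 level was 16.88 ± 0.71 in PTFC, 15.17 ± 0.67 in HFD24, 16.11 ± 0.34 in HFD16 and 16.97 ± 0.36 in ND (SD, n = 3 arrays each). HFD24 was 3.48-fold lower than ND (-1.80 ± 0.36, limma adjusted p = 0.00483). PTFC was 3.27-fold higher than HFD24 (1.71 ± 0.36, limma adjusted p = 0.0238), a call lost without HFD24 replicate 1 or 3 and without PTFC replicate 2 or 3 (limma adjusted p between 0.0504 and 0.0937). PTFC minus ND was -0.09 ± 0.36 with an interval of -0.86 to 0.69. HFD16 minus ND was -0.86 ± 0.36 with limma adjusted p = 0.112, or 0.0473 with the replicate number as a block and 0.0409 in a fit of these groups alone, and -0.67 with adjusted p = 0.302 without HFD16 replicate 3. The groups ran HFD24, HFD16, PTFC and ND in order of level, and neither HFD24 with HFD16 nor PTFC with ND passed the test. HFD16 was not compared with PTFC, and their normalized levels were 16.43 to 17.70 in PTFC and 15.73 to 16.40 in HFD16.

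Ppp1r3g, a glycogen-targeting subunit of protein phosphatase 1 that directs it to glycogen synthase, varied widely within groups. Its intensities were 1728, 1360.2 and 2272 in PTFC, 379, 1194 and 485 in HFD24, 1259, 405 and 169 in HFD16, and 2376, 9956 and 8305 in ND. ND lay above all arrays of the other groups, and the highest array was 4.19 times the lowest within ND and 7.46 times within HFD16. HFD24 was 9.0-fold lower than ND (-3.17 ± 0.65, limma adjusted p = 0.00543, or 0.0616 with the step covariate). HFD16 was 12.0-fold lower (-3.58 ± 0.65, limma adjusted p = 0.00425), or -2.94 on the log2 scale with adjusted p = 0.0205 without its replicate 3, and did not pass with the step covariate (adjusted p = 0.109). PTFC lay above HFD24 on all arrays, but its difference of 1.35 ± 0.65 did not pass (interval -0.05 to 2.74, limma adjusted p = 0.223). It passed in a fit of these groups alone (limma adjusted p = 0.0396). PTFC minus ND was -1.82 ± 0.65 with an interval of -3.22 to -0.43 and adjusted p = 0.158.

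Lpin1, a phosphatidate phosphatase of glycerolipid synthesis and a fasting-induced coactivator, stood higher in PTFC than in every other group. Its brighter probe read 8451, 12842 and 8583 in PTFC, 2649, 3306 and 2744 in HFD24, 4206, 3501 and 2404 in HFD16, and 3518, 2917 and 5517 in ND. The dimmer probe read 1897, 4283 and 2851 in PTFC, 559, 527 and 892 in HFD24, 818, 1123 and 419 in HFD16, and 529, 562 and 1288 in ND. On both probes every PTFC array lay above all other arrays, and the remaining 3 groups overlapped. PTFC was 3.23-fold higher than HFD24 on the brighter probe (1.69 ± 0.26, limma adjusted p = 0.0123) and 3.98-fold higher on the dimmer one (1.99 ± 0.42, limma adjusted p = 0.024 over all probes). PTFC was 2.47-fold higher than ND (1.30 ± 0.26, limma adjusted p = 0.0254) and 3.85-fold higher on the dimmer probe (1.94 ± 0.42, limma adjusted p = 0.0354). The call against ND was lost without ND replicate 1 or 2 and without any 1 of the PTFC arrays, with adjusted p between 0.0545 and 0.118, and with median centring (0.0924) or the step covariate (0.158). HFD24 minus ND was -0.39 ± 0.26 with an interval of -0.96 to 0.18.

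**Figure D2:**
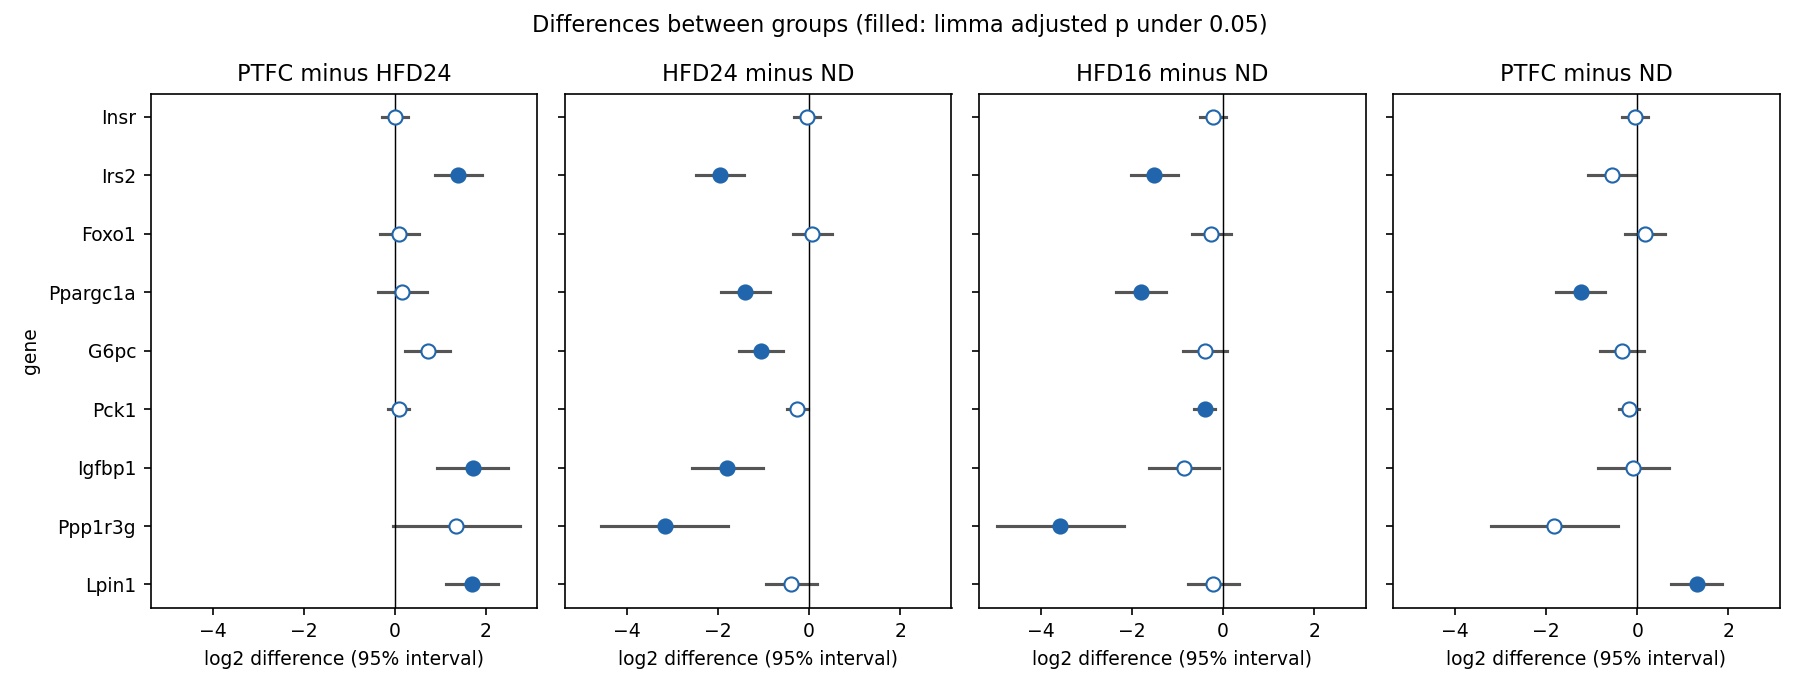
Log2 difference of each gene in 4 comparisons, with bars for the 95% interval of the limma fit over 12 arrays; filled points passed at an adjusted p under 0.05. Irs2 and Igfbp1 are filled on opposite sides of 0 in PTFC minus HFD24 (1.40 and 1.71) and HFD24 minus ND (-1.96 and -1.80), panels that share the HFD24 arrays.

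In HFD16 livers 4 of the 9 transcripts fell against ND (Irs2, Ppargc1a, Pck1 and Ppp1r3g), where 18.1% of all genes passed, 10% as higher and 8.11% as lower. Irs2 was 2.85-fold lower (-1.51, limma adjusted p = 0.00253), or -1.38 with adjusted p = 0.0154 without HFD16 replicate 3. Between HFD24 and HFD16 limma called 0 of the 9, against 0.0367% of all genes, while G6pc (-0.65) and Igfbp1 (-0.94) had unadjusted p of 0.0131 and 0.0214. Without HFD16 replicate 3, limma called 3 of the 9 in HFD16 minus ND and 0 in HFD24 minus HFD16, where G6pc stood at -0.93 (adjusted p = 0.25) and Igfbp1 at -1.13 (adjusted p = 0.531). Against ND, PTFC had 2 of the 9 called, Ppargc1a lower and Lpin1 higher, where 2.33% of all genes passed, 1.04% as higher and 1.29% as lower. In arrays that did not overlap between groups, 5 of the 9 lay lower in HFD24 than in ND, where 18.1% of all genes did so, and 5 lay higher in PTFC than in HFD24, where 15.9% of all genes did so. In the same way 6 lay lower in HFD16 than in ND (18.9% of all genes), and 2 lay higher in HFD24 than in HFD16 (6.25%). Against ND, 4 lay lower in PTFC (12.1% of all genes) and 1 lay higher (10%).

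Most other genes of the pathway did not pass the test, as was true of most genes measured. Of all genes 18.3% passed in HFD24 minus ND and 6% in PTFC minus HFD24. The list counts and medians that follow are descriptions to be read beside those shares, and the lists were chosen with earlier results of these data known. Of 39 measured genes of the insulin receptor pathway, 1 rose and 2 fell in HFD24 against ND, counting Irs2, with a median log2 difference of 0.00. Sh2b2, an adaptor of receptor tyrosine kinases, was higher by 1.03 (limma adjusted p = 0.0258), and Rheb, the small GTPase that activates mTORC1, fell by 0.87 (limma adjusted p = 0.0362). Of 19 measured genes on the list of gluconeogenic enzymes 1 fell, which was G6pc, and the median was -0.01. That list also held the transporters Slc2a2 and Slc37a4. It held Pigq too, matched through an older gene name, which is not a gluconeogenic enzyme. Of 25 regulators of gluconeogenesis 3 rose and 3 fell, with a median of -0.05. The salt-inducible kinase Sik1, itself induced by cAMP, fell by 1.99 ± 0.40 (limma adjusted p = 0.00508), and the CREB coactivator Crtc2 fell by 0.71 ± 0.15 (limma adjusted p = 0.00632). Sik1 intensities were 381, 1146 and 718 in PTFC, 617, 357 and 696 in HFD24, and 1661, 2380.2 and 2827 in ND, so all HFD24 arrays lay below all ND arrays. The nuclear repressor Nr0b2 was higher by 1.64 ± 0.46 (limma adjusted p = 0.0275), the kinase Stk11 by 0.93 (limma adjusted p = 0.0103) and the acetyltransferase Crebbp by 0.84 (limma adjusted p = 0.0222). Of these 7 genes Sik1 kept its call under all 22 alternatives, and Crtc2 lost it with median centring (adjusted p = 0.091). The other 5 lost theirs with the step covariate and when single arrays were left out, with Sh2b2 at 0.39 under the covariate and Rheb at -0.56 without HFD24 replicate 1. Sh2b2 and Crebbp, both dim, also lost theirs without normalization (0.73, adjusted p = 0.0998, and 0.46, adjusted p = 0.166). In PTFC against HFD24, 1 of the 39 receptor pathway genes rose (Irs2). There limma called 0 of the 19 genes of the enzyme list and 0 of the 25 regulators, of which 2 each had an unadjusted p under 0.05.

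Among 16 genes of glycolysis and glucokinase, 4 rose and 2 fell in HFD24 against ND, with a median of 0.20. Of all genes 9.97% rose and 8.28% fell there. The hexokinases Hk3 (3.01 ± 0.42) and Hk2 (2.02 ± 0.42), the pyruvate kinase Pkm (2.32 ± 0.37) and Pfkfb3 (1.40), which makes the activator of phosphofructokinase, rose. Macrophage markers rose as well, and their part in these rises was not tested. In PTFC minus HFD24 Hk2, Pkm and Pfkfb3 stood at -1.30, -1.22 and -0.03 and did not pass. With the step covariate the calls of Hk2 (1.35, adjusted p = 0.107) and Pfkfb3 (0.83, adjusted p = 0.1) were lost. The liver pyruvate kinase Pklr fell by 1.02, a call lost with the same covariate (adjusted p = 0.0704), and Pdk4, the fasting-induced brake on pyruvate oxidation, fell by 2.32 ± 0.40 (limma adjusted p = 0.00224). Pdk4 intensities were 7137, 11276 and 9372 in PTFC, 2151, 4002 and 2544 in HFD24, and 8274, 13284 and 26862 in ND. HFD24 lay below the other 2 groups on every array, and Pdk4 was higher by 1.63 ± 0.40 in PTFC than in HFD24 (limma adjusted p = 0.0359), where Hk3 fell by 1.97 ± 0.42 (limma adjusted p = 0.025).

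Of 28 genes of glycogen metabolism, 3 rose and 2 fell in HFD24 against ND, with a median of 0.11. These counts are near the shares of all genes, of which 9.97% rose and 8.28% fell. The brain-type phosphorylase Pygb (1.66 ± 0.27), the phosphoglucomutase Pgm2 (1.19) and the glycogenin Gyg (0.77) were higher, and the targeting subunit Ppp1r3f fell by 0.88. With the step covariate Pgm2 (adjusted p = 0.0722), Gyg (0.114) and Ppp1r3f (-0.56, adjusted p = 0.181) did not pass. In PTFC against HFD24, Ppp1r3f was higher by 0.93 ± 0.21 (limma adjusted p = 0.03), and Nhlrc1, the ubiquitin ligase malin, fell by 0.71 (limma adjusted p = 0.0352) on 1 probe, with 0.01 on its other probe and -0.37 without normalization (adjusted p = 0.205). Of 17 genes of the insulin-like growth factor axis 2 rose (Igfbp7 by 1.98 ± 0.21 and Igfbp3 by 1.53) and 2 fell (Igfbp1 and the protease Pappa, by 0.72) in HFD24. The other Igfbp7 probe gave -0.02, and the mean of both probes 0.98. In PTFC against HFD24 Igfbp7 fell by 0.89 (limma adjusted p = 0.0331), with -0.08 on its other probe and -0.49 for the mean of both (adjusted p = 0.0755).

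Of 12 lipins and enzymes of glycerolipid synthesis, Gpat2, an acyltransferase, rose by 1.17 ± 0.15 and Lpin2 fell by 0.86 in HFD24 against ND. Lpin2 intensities were 18017, 25772 and 23589.8 in HFD24 and 32145, 32988 and 71347 in ND, and without ND replicate 3 the difference was -0.47 (limma adjusted p = 0.0874). In PTFC against HFD24, Lpin1 and Lpin2 rose, Lpin2 by 1.12 ± 0.27 (limma adjusted p = 0.0363), and Gpat2 fell by 0.70 (limma adjusted p = 0.0238). Of 10 lipogenic genes that insulin induces, 1 rose in HFD24, the sterol regulatory factor Srebf1 (1.64 ± 0.28, limma adjusted p = 0.00219), and in PTFC 1 fell against HFD24, the lipid droplet protein Pnpla3 (-1.24, limma adjusted p = 0.0421, or -0.74 with 0.171 without normalization). Pnpla3 was dim, with intensities of 72.5, 71.0 and 57.7 in PTFC and 69.4, 89.9 and 226 in HFD24, which overlap before normalization. Its other probe gave -0.85. The Pnpla3 call was lost without any 1 of the HFD24 or PTFC arrays. Of 15 genes of the fasting and glucocorticoid response, 1 rose and 4 fell in HFD24 against ND, with a median of -0.52. Of all genes 9.97% rose and 8.28% fell in that comparison. The list genes that fell were Pdk4, the tyrosine aminotransferase Tat (-0.87), the kinase Sgk1 (-0.85) and Angptl4, an inhibitor of lipoprotein lipase (-0.52), whereas the glucocorticoid-induced Tsc22d3 was higher by 1.18. In PTFC against HFD24, 3 of the 15 rose and 0 fell, with a median of 0.51, where 2.96% of all genes rose and 3.04% fell. Those that rose were Zbtb16 (2.42 ± 0.45, limma adjusted p = 0.0182), a transcriptional regulator, with Pdk4 and Angptl4 (0.61). Zbtb16 intensities were 1806, 4777 and 4533 in PTFC, 357, 608 and 828 in HFD24, and 1037, 824 and 2666 in ND. All PTFC arrays lay above all HFD24 arrays. Each list gene named as changed in PTFC against HFD24 lost its call without HFD24 replicate 1 and without PTFC replicate 3, as the 3 members did.

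**Figure D3:**
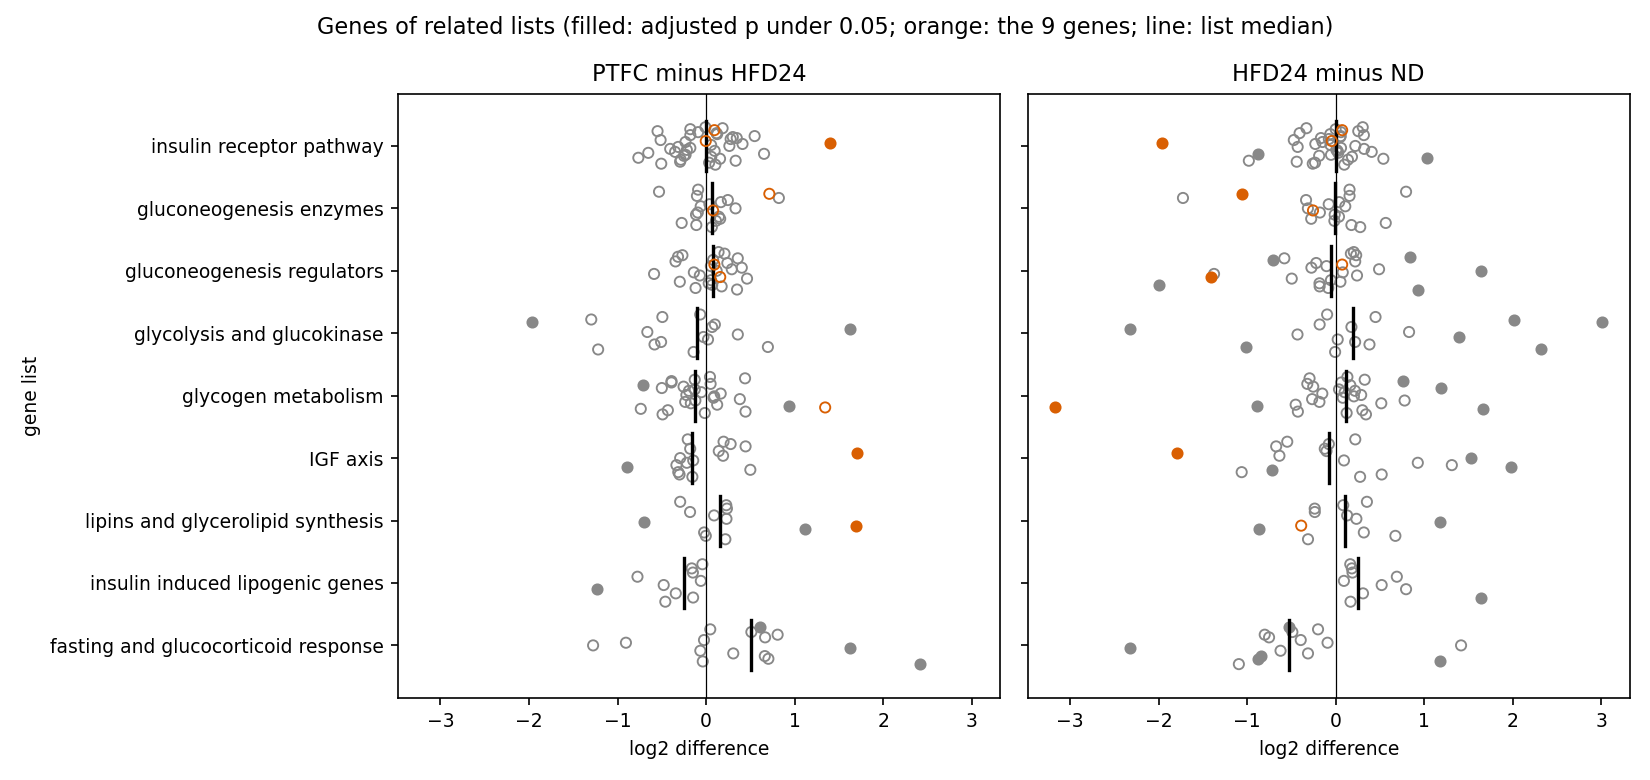
Log2 difference of each measured gene in 9 gene lists, in PTFC minus HFD24 and in HFD24 minus ND; filled points passed at an adjusted p under 0.05, orange points are the 9 genes and black lines are list medians. The fasting and glucocorticoid list has its median at 0.51 in PTFC minus HFD24 and at -0.52 in HFD24 minus ND, and the panels share the HFD24 arrays. Genes and lists were chosen with earlier results of these data known.

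Likeness of pattern was measured as the root mean square difference between centred log2 values over the 12 arrays, among 13423 genes, and is a description that shares groups and arrays. Among the members the closest pairs were Insr with Pck1 (0.0978), Insr with Foxo1 (0.193), Foxo1 with Pck1 (0.225) and Irs2 with Igfbp1 (0.366). The own spread, the root mean square of a gene's centred values, was 0.134 for Insr, 0.176 for Pck1 and 0.253 for Foxo1. The measure is not scaled by spread, so genes that vary little lie close together without sharing a pattern. The genes nearest to Irs2 were Hsd17b7, an enzyme of sterol synthesis (0.302), Fam209 (0.309) and the claudin Cldn7 (0.323), against an own spread of Irs2 of 0.814. Nearest to Igfbp1 were Irs2, the organic anion transporter Slco1a4 (0.476) and the leptin receptor Lepr (0.476), against an own spread of 0.851. Nearest to Ppargc1a were Dnase2b (0.241), the carnitine acetyltransferase Crat (0.285) and Ctif (0.294), against 0.729. Nearest to Ppp1r3g were the stress-induced Gadd45g (0.870), Ptx4 (0.911) and Pdk4 (0.940), against 1.62, and nearest to Lpin1 were the exchanger Slc8a1 (0.356), Slc45a3 (0.455) and Cdip1 (0.461), against 0.729. G6pc was nearest to Kcnd1 (0.223), Klk9 (0.228) and Slc18a3 (0.243), against 0.463.

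**Figure D4:**
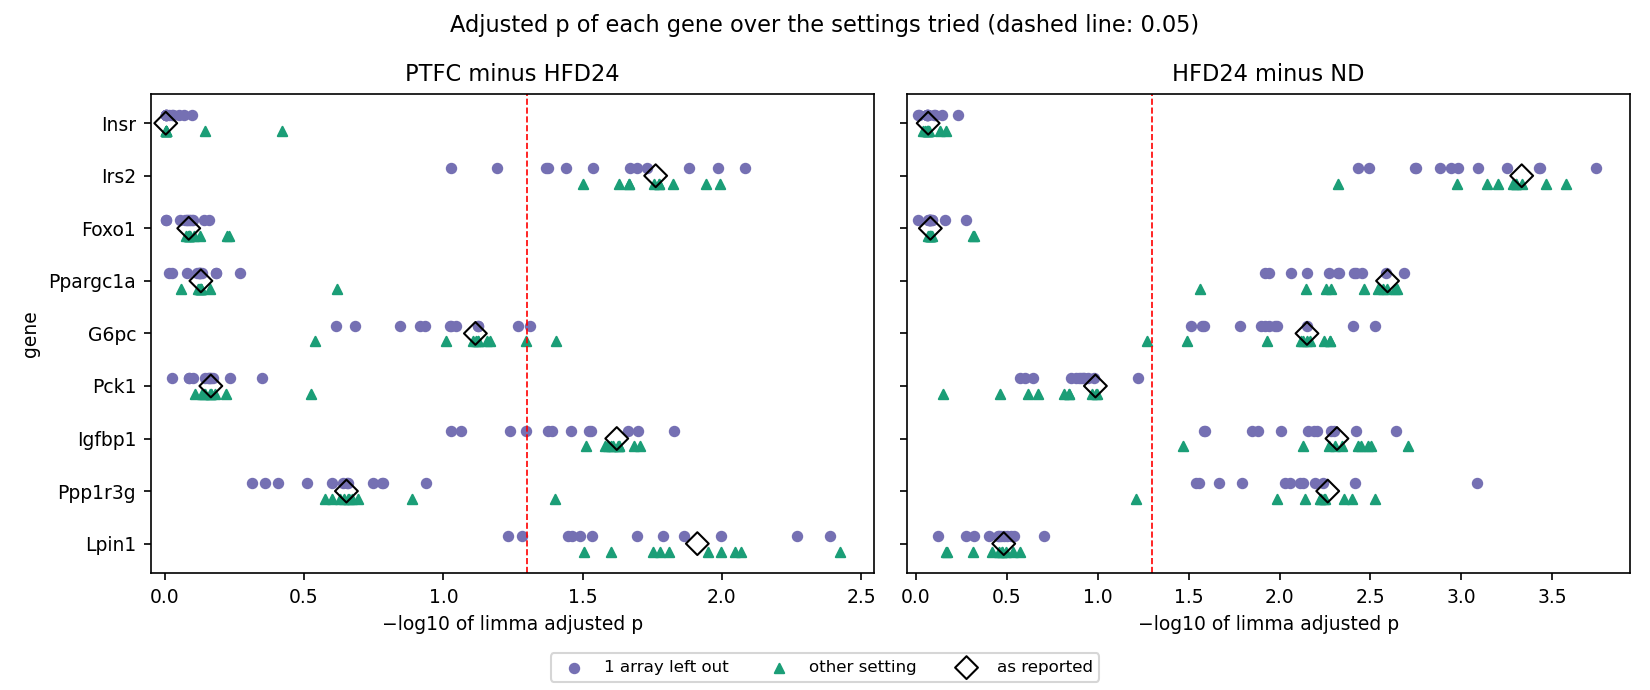
Minus log10 of the limma adjusted p of each gene in PTFC minus HFD24 and HFD24 minus ND, as reported (diamonds), with 1 array left out (circles) and under other settings (triangles); the dashed line is 0.05. Irs2, Igfbp1 and Lpin1 cross the line to the left in PTFC minus HFD24 when single arrays are left out, whereas in HFD24 minus ND the triangles of G6pc and Ppp1r3g (scaling step as a covariate) cross it.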

How the data were processed

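Per the labels' protocols, liver RNA was amplified, carried Cy5 as its only dye and was hybridised. The authors deposited linear intensity values of 26423 probes on 12 arrays. Background subtraction and scaling are not given in the sources used here. Every array had its own step of 0.675 to 1.46, of which all values under 1000 were multiples to within 0.02 of a step. Its group mean was 0.921 to 0.976 in the high-fat groups and 1.31 ± 0.133 in ND (SD, n = 3). All ND steps (1.23 to 1.46) lay above those of the other groups (0.675 to 1.12), so step and diet are confounded. A call against ND that is lost with the step covariate can therefore not be assigned to either. Negative values (291) were set to 0, and log2(intensity + 1) was quantile normalized. The pseudocount of 1 shrinks the fold change of dim genes, and normalization can enlarge it (Crebbp, 0.84 and 0.46 with and without it in HFD24 minus ND). Probes were named from the platform annotation, keeping the brightest probe per gene. Group means were fitted with limma 3.58.1 in R 4.3.3 (lmFit, eBayes with trend), two-sided, with Benjamini-Hochberg adjustment over 19084 genes. The fit was run on simulated data with independent noise, each probe's SD capped at 1, and no array or step effects. That run therefore says nothing on such effects or on wider spreads. The number of arrays limits the precision.

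Named genes are the 9 members, up to 4 others per list and direction past the test with the smallest p, and the 3 of most similar pattern. Members and lists were chosen with earlier results of these data known. The labels do not say that replicate numbers pair arrays. Deviations of same-numbered arrays correlated at over 0.1 in all 3 pairs of HFD16 with ND (0.105 to 0.147) and in 1 of the 15 pairs of other groups. In HFD24 with HFD16 all 3 were negative (-0.151 to -0.129). Deviations from a group mean cancel within the group, so the differently numbered pairs give no separate comparison. These values do not settle whether the numbers pair arrays, and the block is given only as an alternative.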

Additional observations from a re-analysis of the deposited data

How the results depend on the processing

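Of 990 member results under 22 alternatives, 935 kept direction and side of the threshold, 25 lost their call, 5 gained one and 25 changed sign, none of the last being called. In HFD24 minus ND all 5 calls held with any array left out (5 to 5), and 3 held with each array's step (highest in ND) as a covariate (G6pc adjusted p = 0.0536, Ppp1r3g 0.0616). In PTFC minus HFD24 the 3 calls ranged from 0 to 4 with an array left out: without HFD24 replicate 1 limma gave Irs2 1.26 (0.0642), Igfbp1 1.36 (0.0864) and Lpin1 1.67 (0.0524), and without PTFC replicate 3 it gave 1.40 (0.0937), 1.93 (0.0937) and 1.79 (0.0586). Igfbp1 alone also lost its call without HFD24 replicate 3 (0.0504) and without PTFC replicate 2 (0.0574). Over all genes, 1145 were called in this comparison, 39 without HFD24 replicate 1 and 11 without PTFC replicate 3. HFD16 minus ND had 4 calls, 2 with the step covariate and 3 to 4 with an array left out. PTFC minus ND had 2, then 1 with median centring, 0 with the step covariate and 0 to 2 with an array left out. HFD24 minus HFD16 had 0 to 0. The cause of these changes was not tested.

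With the replicate block, fitted over the 12 arrays, the member counts were 5, 3, 5, 0 and 2 for HFD24 minus ND, PTFC minus HFD24, HFD16 minus ND, HFD24 minus HFD16 and PTFC minus ND, the added call being Igfbp1 in HFD16 (adjusted p = 0.0473), while 337 genes in all passed in PTFC minus HFD24. The 18 same-numbered pairs had correlations of -0.288 to 0.169 in their deviations from group means. Only in HFD16 with ND were all 3 over 0.1.

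Signs that changed were all of uncalled values. Insr in HFD24 minus ND became 0.11 with median centring and 0.041 with the step covariate, and ranged from -0.13 to 0.057 with an array left out. Insr in PTFC minus HFD24 became 0.083 without normalization and 0.0046 with the step covariate (-0.058 to 0.080 with an array left out), and in PTFC minus ND 0.046 with the step covariate (-0.11 to 0.053). Foxo1 ranged from -0.083 to 0.19 in HFD24 minus ND with an array left out, and became -0.20 in PTFC minus HFD24 with median centring and 0.023 in HFD16 minus ND with the step covariate. In PTFC minus HFD24 Ppargc1a ranged from -0.028 to 0.32, and Pck1 became -0.16 with median centring. Lpin1 in HFD16 minus ND became 0.0073 with median centring (-0.42 to 0.053 with an array left out), and ranged from -0.38 to 0.028 in HFD24 minus HFD16. With an array left out, Ppp1r3g in HFD24 minus HFD16 ranged from -0.22 (without HFD16 replicate 3) to 1.16, and Igfbp1 in PTFC minus ND from -0.50 to 0.14.

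Without normalization the median of all genes shifted by -0.23 in HFD24 minus ND and 0.24 in PTFC minus HFD24, and with median centring by -0.13 in the second. Of 27 list genes named in HFD24 minus ND, 10 kept their call under all 22 alternatives. With the step covariate 16 lost it (adjusted p 0.0503 to 0.375): Sh2b2, Rheb, Stk11, Crebbp, Nr0b2, Pfkfb3, Hk2, Pklr, Pgm2, Gyg, Ppp1r3f, Pappa, Lpin2, Tat, Sgk1 and Angptl4. Other settings took 5 calls with median centring (Crebbp, Crtc2, Lpin2, Tat and Angptl4), 5 in the fit of these groups alone (Rheb, Gyg, Pappa, Lpin2 and Sgk1) and 2 each without normalization (Sh2b2 and Crebbp), without trend (Lpin2 and Angptl4) and with the replicate block (Rheb and Pappa). Leaving out ND replicate 1, 2 or 3 took 8, 9 and 2 calls, and HFD24 replicate 1, 2 or 3 took 9, 3 and 7. Of the 10 named in PTFC minus HFD24, 10 were lost without HFD24 replicate 1 or PTFC replicate 3, 4 without normalization (Nhlrc1, Igfbp7, Gpat2 and Pnpla3), 3 with median centring (Pdk4, Lpin2 and Angptl4) and 5 with the replicate block (Pdk4, Ppp1r3f, Nhlrc1, Gpat2 and Pnpla3).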
